A study of Arabidopsis thaliana with 19 samples.

Results

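Transcript levels in Arabidopsis thaliana seedlings overexpressing MYB29 (MYB29_OE, 2 arrays) were set directly against those in seedlings overexpressing MYB76 (MYB76_OE, 2 arrays), with no wild type in the contrast. These 4 arrays were chosen by their titles from a series of 19 Affymetrix ATH1 arrays, a 3' expression array with 1 probe set per transcript or small group of transcripts. All seedlings were 14 days old and came from a day of 10 h light and 14 h dark at 20 °C. Cotyledons and hypocotyls had been removed, and 15 µg of total RNA was used per array. The 3 wild type arrays of the same experiment (WT_MYB29_MYB76) carry no overexpressed factor, and their levels are given beside those of the overexpressing lines. The labels used here name neither the promoter nor the number of independent lines behind each genotype, and do not tell whether the replicates came from separate plantings. The p-values therefore rest on how far replicate arrays differ, over all 9 groups of the series, and part of that may be technical.

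MYB29 and MYB76 are closely related R2R3-MYB transcription factors, and the 2 genes are neighbours on chromosome 5 with 0 annotated genes between them in the TAIR10.1 gene table. With MYB28 they are known as activators of the aliphatic glucosinolate pathway. Glucosinolates are sulfur-rich defence compounds of the cabbage family. The aliphatic ones are made from methionine, whose side chain is first elongated, then built into the glucosinolate core and finally modified. Their synthesis draws on sulfate assimilation, and tissue damage brings them into contact with myrosinases, the beta-glucosidases that release their toxic products. The comparison asks where the transcript profiles of seedlings with the 2 factors part.

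Replicate arrays agreed unevenly. The 3 wild type arrays of the experiment correlated with each other at r = 0.911 to 0.949, less closely than the replicates of either line. With the arrays of the lines they correlated at r = 0.866 to 0.911, less closely than the arrays of the 2 lines did with each other. Over the tested probe sets, log2 signals of the MYB29_OE replicates correlated at r = 0.970 and those of the MYB76_OE replicates at r = 0.986. MYB29_OE replicate 1 correlated at 0.978 with both MYB76_OE arrays, more closely than with its own replicate, and MYB29_OE replicate 2 correlated with them at 0.960 and 0.962. MYB29_OE replicate 2 thus stood apart, and values without it are given beside some, but not all, of the results that move with it. Median signals were 93.7 and 87.0 on the MYB29_OE arrays and 90.5 and 92.2 on the MYB76_OE arrays. RCA, the Rubisco activase of leaf mesophyll and the only named mesophyll marker of 12, gave signals of 7990 and 10131 in MYB29_OE against 8956 and 8713 in MYB76_OE. The only named root marker of 12, AT3G12900, stayed near the array medians or below (54.6 and 59.9 in MYB29_OE, 30.5 and 53.1 in MYB76_OE). None of the flower and seed markers could be named.

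Of 15630 tested probe sets, 4 were called at an adjusted p under 0.05 (0.0256%), 1 higher in MYB29_OE (0.0064%) and 3 lower (0.0192%). With quantile normalization the split was 2 higher and 3 lower, and other settings gave 1 to 22 calls. A low count does not show that the lines were alike, since 2 arrays per line and a spread shared by all groups of the series leave wide intervals. All 4 probe sets are without a listed gene here and are given by their array identifiers, and the signals are linear MAS5 values that the authors scaled to a common mean. The probe sets of MYB29 and MYB76 themselves are not named here either. Whether they are among these 4 therefore cannot be told, and the overexpression stated by the labels was not checked.

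Probe set 250598_at was higher in MYB29_OE, with signals of 1605 and 1955 against 103 and 129 in MYB76_OE and 71.0, 78.3 and 82.4 in wild type. The difference was 3.94 ± 0.34 on the log2 scale (SE, 95% interval 3.22 to 4.66), a 15.4-fold difference with a limma adjusted p of 6.43e-05. The MYB29_OE arrays were higher than all 17 other arrays of the series, of which the WT_miR arrays came next with 239 and 326. Probe set 250589_at showed the reverse order, with 309 and 290 in MYB29_OE against 2518 and 2286 in MYB76_OE and 57.6, 49.6 and 68.0 in wild type. It was 8.02-fold lower in MYB29_OE (log2 difference -3.0 ± 0.39, 95% interval -3.83 to -2.18, limma adjusted p = 0.0078). Both lines were above every other array of the series here, where the highest signal was 162. Both probe sets lay above the wild type arrays of the experiment in both lines.

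The other 2 called probe sets were also lower in MYB29_OE. Probe set 259381_s_at gave 181 and 113 in MYB29_OE against 526 and 472 in MYB76_OE, with wild type between the lines at 360, 360 and 238. The difference was -1.80 ± 0.27 on the log2 scale, 3.48-fold lower in MYB29_OE with a limma adjusted p of 0.026, and the call was lost when the spread came from the 7 arrays of the experiment (limma adjusted p = 0.254) or the 4 arrays compared (0.0579). The suffix of its identifier marks a probe set that several related transcripts share, so the signal cannot be given to 1 transcript. Its signal differed strongly between the experiments, at 1061 to 1435 on the 6 arrays of the artificial microRNA experiment. Probe set 266142_at gave 11 and 5.15 in MYB29_OE, both under the array's floor (its 20th percentile, to which lower signals were raised). In MYB76_OE it gave 630 and 594, and in wild type 36, 19.2 and 32.2. It was at least 45-fold lower in MYB29_OE (log2 difference -5.49 ± 0.85, limma adjusted p = 0.0347), and not called with the replicate number as a block (limma adjusted p = 0.105). This probe set varied within another genotype as well, at 705 and 56.6 on the ATR1_OE arrays.

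**Figure D1:**
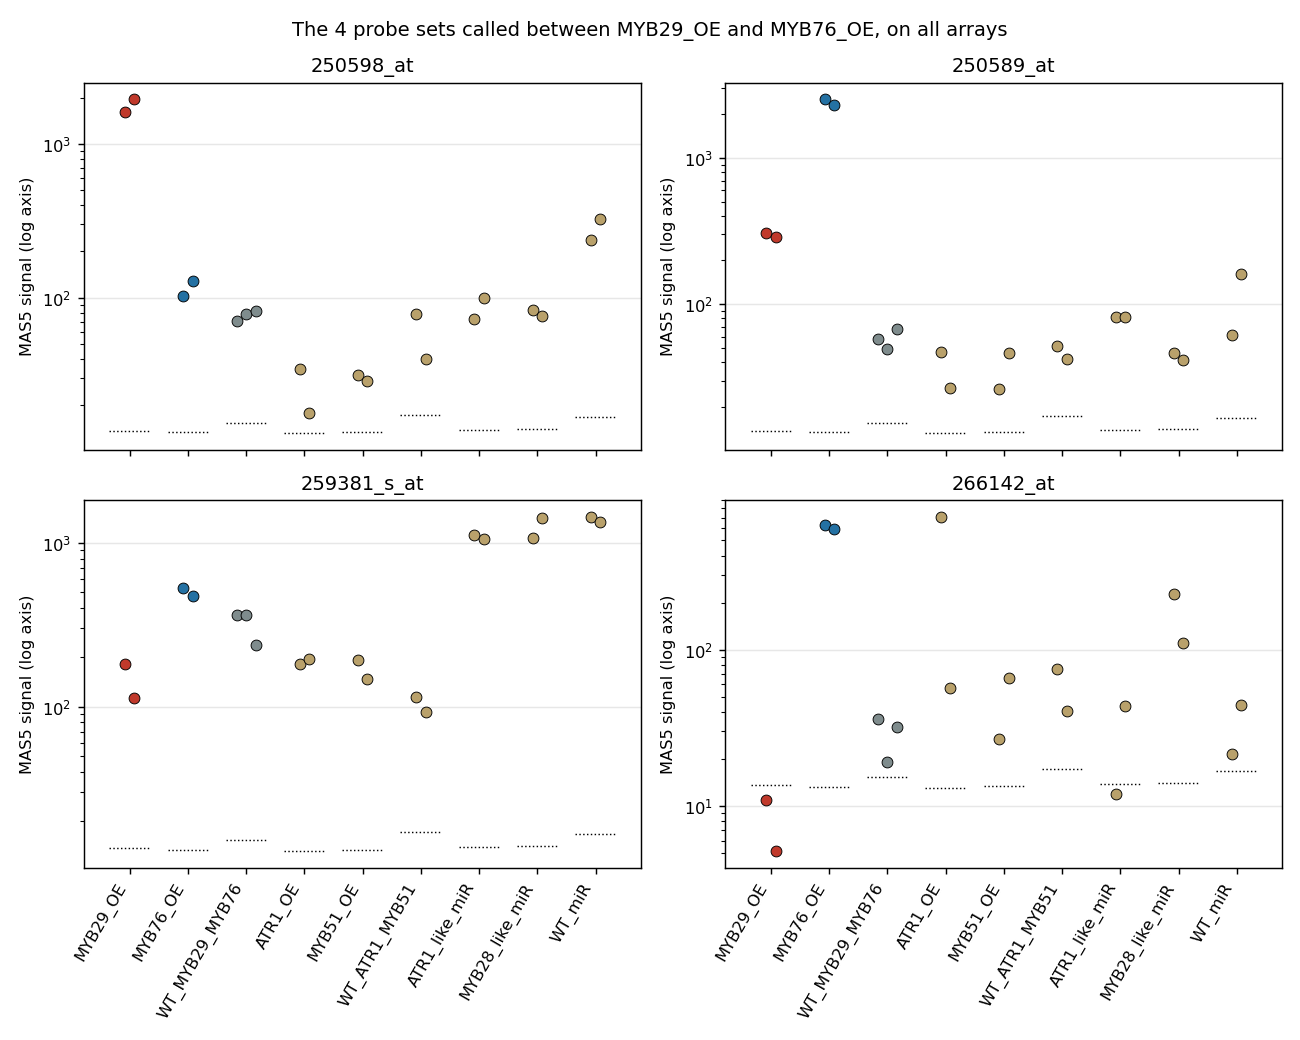
MAS5 signal (log axis) of the 4 called probe sets on each of the 19 arrays, 1 point per array; dotted lines mark the mean floor of each group. In 250598_at the MYB29_OE arrays (1605 and 1955) lie above all others, and in 250589_at the MYB76_OE arrays (2518 and 2286) do, with the MYB29_OE arrays (309 and 290) next.

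Leaving out 1 array changed the calls. Without MYB29_OE replicate 2, MYB76_OE replicate 1 or MYB76_OE replicate 2, only 250598_at was called. Without MYB29_OE replicate 1, which leaves the array that stood apart as the single MYB29_OE array, 21 probe sets were called, 1 higher and 20 lower in MYB29_OE, and 3 of these were called with all arrays.

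Below the threshold, the larger differences were more often toward lower signal in MYB29_OE. At an unadjusted p under 0.05 there were 514 probe sets (3.29%), 208 higher (1.33%) and 306 lower (1.96%) in MYB29_OE. The share of 3.29% is below what this threshold would pass on average if no probe set differed. It rests on the spread over all 9 groups of the series. With the spread from the 4 arrays compared, 1288 of 13896 probe sets had a limma unadjusted p under 0.05, more than that average share. At least 2-fold differences were found at 307 probe sets (1.96%), 82 higher (0.525%) and 225 lower (1.44%). The 4 arrays of the lines did not overlap at 6459 probe sets (41.3%), 3519 higher (22.5%) and 2940 lower (18.8%) in MYB29_OE. With 2 arrays per line such an order is frequent where nothing differs, so this share does not measure a difference between the lines. The median log2 difference over all tested probe sets was 0.02, the median absolute difference 0.17 and the median standard error 0.30. The middle 95% of the differences lay between -0.80 and 0.64.

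Among the 2-fold decreases, the array that stood apart was mostly the lower of its pair. MYB29_OE replicate 2 had the lower signal of the MYB29_OE arrays at 194 of the 225 probe sets that were at least 2-fold lower (86.2%), against 50.4% of all tested probe sets. Of the 82 that were at least 2-fold higher it had the lower signal at 24. Both sets were picked by means that include this array, so part of such an excess follows from the choice itself. The part of that array in these differences was not tested beyond the values given without it. Of the 225, 12 had both MYB29_OE arrays at the floor, and of the 82, 9 had both MYB76_OE arrays there.

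**Figure D2:**
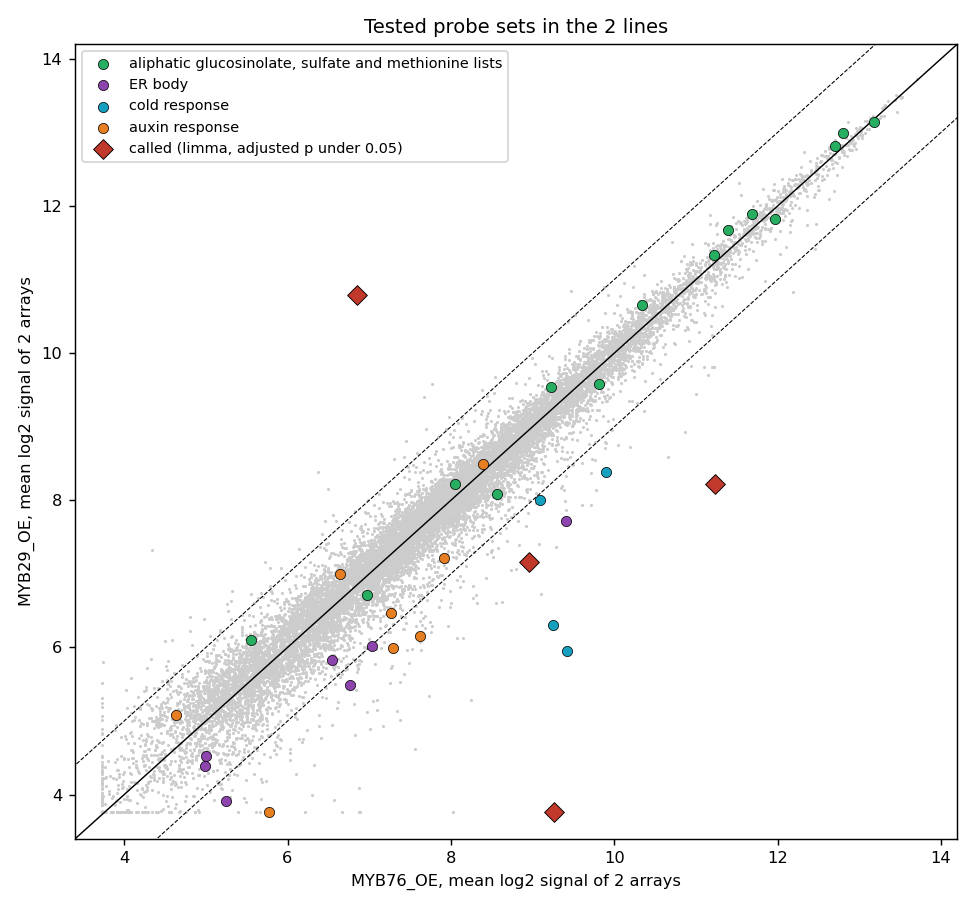
Mean log2 signal of the 2 MYB29_OE arrays (vertical axis) against that of the 2 MYB76_OE arrays (horizontal axis) for the 15630 tested probe sets, with equality as a solid line and 2-fold differences as dashed lines. Genes of the aliphatic glucosinolate, sulfate and methionine lists (green) lie between the dashed lines, cold and ER body genes lie below the solid line, and diamonds mark the 4 called probe sets.

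Genes of aliphatic glucosinolate synthesis had closely similar signals in the lines. Of 28 genes in the list, 5 could be named and were tested, and none was called (0.0256% of all tested probe sets were). Their median log2 difference was 0.10, against 0.02 over all tested probe sets, and their range was -0.47 to 0.20. None had an unadjusted p under 0.05. In both lines each of the 5 lay above all 3 wild type arrays.

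BCAT4, the aminotransferase that opens methionine chain elongation, gave 7056 and 9443 in MYB29_OE against 7116 and 7131 in MYB76_OE and 1563, 2176 and 791 in wild type. The arrays of the lines overlapped, and the log2 difference was 0.20 (95% interval -1.46 to 1.85). GSTU20, a glutathione transferase linked to formation of the core structure, gave 6720 and 7665 in MYB29_OE against 6227 and 7163 in MYB76_OE, with a log2 difference of 0.10 (-0.77 to 0.98). AT2G31790, the glucosyltransferase UGT74C1, gave 3549 and 4034 against 3416 and 3175 in MYB76_OE (0.20, -0.51 to 0.91). Both MYB29_OE arrays of AT2G31790 were above both MYB76_OE arrays, by less than the error of the fit.

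Of the side-chain genes, 2 were tested. AOP3, the dioxygenase that makes hydroxyalkyl glucosinolates, gave 8028 and 10178 in MYB29_OE against 9168 and 9297 in MYB76_OE and 943, 1224 and 589 in wild type. Its log2 difference was -0.03 with a 95% interval of -0.81 to 0.75, so a difference of 2-fold either way lay outside the interval. AT2G25450, the dioxygenase GSL-OH, gave 296 and 251 in MYB29_OE against 368 and 388 in MYB76_OE and 16.3, 0.937 and 17.2 in wild type. It had the lowest value of the list, -0.47 (-1.17 to 0.22), and its arrays did not overlap between the lines. A 2-fold lower level of AT2G25450 in MYB29_OE lay within its interval.

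**Figure D3:**
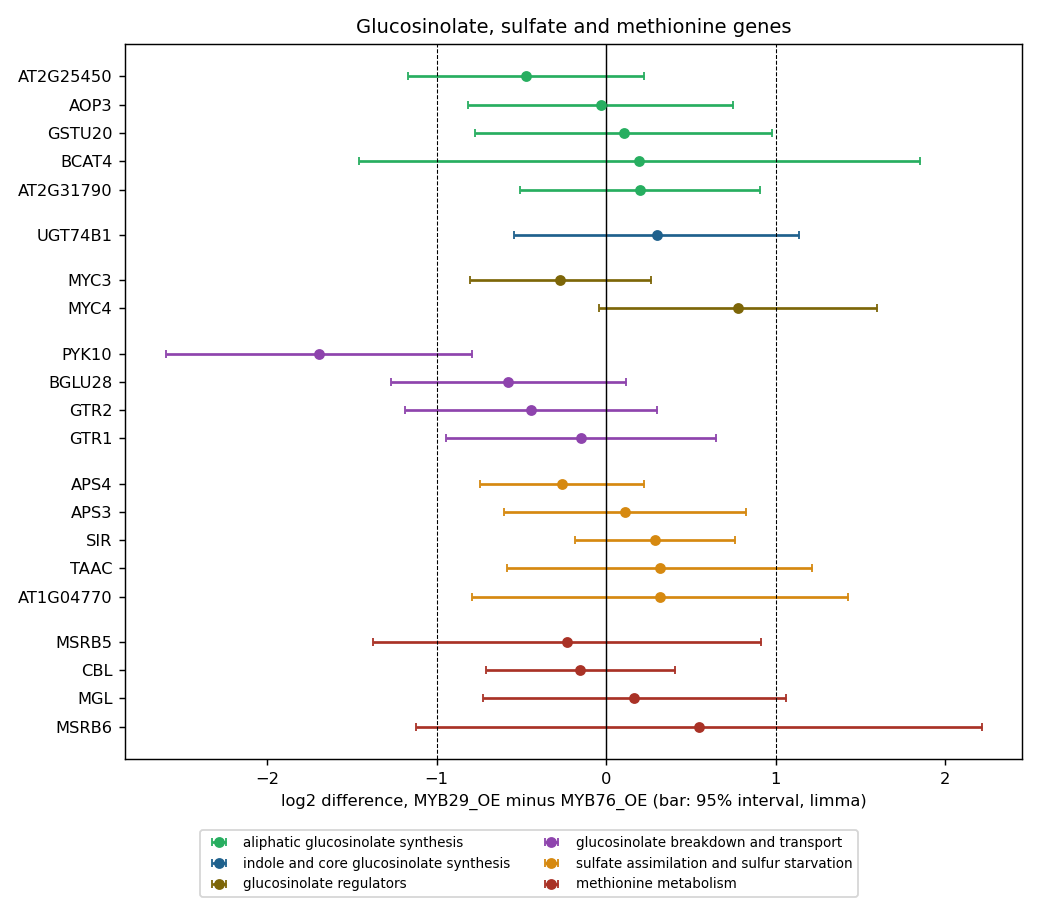
Log2 difference, MYB29_OE minus MYB76_OE, of the named glucosinolate, sulfate and methionine genes (points) with limma's 95% interval (bars), coloured by list; the solid line marks 0 and the dashed lines 2-fold differences. All intervals cross 0 except that of PYK10 (-2.60 to -0.79), and none of these genes was called.

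The single named gene of the indole and core list, the core glucosyltransferase gene UGT74B1, gave 1342 and 1704 in MYB29_OE against 1119 and 1350 in MYB76_OE (0.30, 95% interval -0.54 to 1.14). Of the regulators, the bHLH factors MYC3 and MYC4, known partners of these MYB proteins, could be named. MYC4 gave 56.2 and 78.1 in MYB29_OE against 28.4 and 52.4 in MYB76_OE (0.78, -0.04 to 1.60), and in wild type it gave 120, 87.0 and 98.1. MYC3 overlapped between the lines at 184 and 201 in MYB29_OE and 195 and 275 in MYB76_OE. Neither was called, and both were below most wild type arrays in both lines.

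Sulfate assimilation genes, 5 tested of 21, had a median log2 difference of 0.29 with no call. That median was -0.03 without MYB29_OE replicate 2 and 0.15 without MYB76_OE replicate 1. SIR, the sulfite reductase of plastids, gave 3033 and 3519 in MYB29_OE against 2784 and 2572 in MYB76_OE (0.29, 95% interval -0.18 to 0.76). APS3, an ATP sulfurylase that activates sulfate, gave 2165 and 3082 against 2520 and 2268 in MYB76_OE, with wild type at 197, 284 and 218. Its difference was 0.11 (-0.60 to 0.83), and the related APS4 differed by -0.26 (-0.74 to 0.22). TAAC, which carries the sulfate donor PAPS across the plastid envelope, gave 1273 and 2053 in MYB29_OE against 1161 and 1453 in MYB76_OE. AT1G04770, a gene of the sulfur deficiency response, gave 765 and 729 against 531 and 675 in MYB76_OE. Of the 5, 4 had a higher mean in MYB29_OE, and all 5 intervals included 0, as did those of the methionine and tryptophan genes described next.

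Methionine metabolism, 4 tested of 11, had a median of 0.01 and no call. CBL, the cystathionine beta-lyase of methionine synthesis, gave 3115 and 4183 in MYB29_OE against 3959 and 4067 in MYB76_OE (-0.15, 95% interval -0.71 to 0.40). MGL, the methionine gamma-lyase of its breakdown, gave 381 and 232 against 281 and 249 in MYB76_OE. Of the methionine sulfoxide reductases, MSRB5 gave 878 and 669 against 810 and 999, and MSRB6 gave 131 and 36.3 against 57.1 and 38.9 in MYB76_OE. The arrays of the lines overlapped for all 4 genes, while 41.3% of all tested probe sets showed no overlap. In wild type MSRB5 gave 35.6, 75.8 and 14, below both lines, and MSRB6 gave 524, 1601 and 394, above both.

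Tryptophan and auxin synthesis genes, 4 tested of 15, had a median of 0.12 and no call. AT2G04400, indole-3-glycerol phosphate synthase of tryptophan synthesis, gave 899 and 869 in MYB29_OE against 875 and 777 in MYB76_OE. The YUCCA flavin monooxygenases make auxin. YUC6 gave 91.4 and 82.8 in MYB29_OE against 48.7 and 38.7 in MYB76_OE, a log2 difference of 1.0 (95% interval -0.23 to 2.24). YUC2 and YUC4 differed by 0.14 and -0.30.

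The genes of glucosinolate breakdown and transport, 4 tested of 15, all had lower means in MYB29_OE, with a median of -0.51 and no call. PYK10, a beta-glucosidase of ER bodies, gave 369 and 121 in MYB29_OE against 644 and 723 in MYB76_OE and 876, 963 and 601 in wild type. The difference was -1.69 ± 0.43 on the log2 scale, 3.23-fold lower in MYB29_OE with a limma adjusted p of 0.6. It was -0.89 without MYB29_OE replicate 2 and -2.50 without MYB29_OE replicate 1, where it was called (limma adjusted p = 0.0248). In that fit MYB29_OE is the single array that stood apart, assumed to vary like the arrays of the other groups. BGLU28, a beta-glucosidase known for its response to sulfur starvation, gave 1470 and 1121 in MYB29_OE against 1881 and 1949 in MYB76_OE and 19 to 23.5 in wild type (-0.58, 95% interval -1.27 to 0.12). GTR2 and GTR1, which import glucosinolates into cells, differed by -0.44 and -0.15.

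ER bodies are compartments of the endoplasmic reticulum that store PYK10, and jacalin-related lectins (JAL) are found in complexes with that enzyme. Of 16 genes in the ER body list, 7 were tested, and none was called. All 7 had both MYB29_OE arrays below both MYB76_OE arrays, an order shown by 18.8% of all tested probe sets, and 5 had an unadjusted p under 0.05, against 1.96%. Their median log2 difference was -1.02. NAI1, the bHLH factor needed for ER body formation, gave 17.4 and 13.1 in MYB29_OE against 36.8 and 39.0 in MYB76_OE, and its wild type signals of 45, 17.4 and 26.6 spanned most of that range. JAL34 gave 47.4 and 42.6 against 106 and 112 in MYB76_OE, and JAL33 gave 80.2 and 52.0 against 116 and 148.

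JAL33, JAL34 and JAL22 lay below all wild type arrays in both lines, and PYK10 did so in MYB29_OE. JAL34 gave 250, 210 and 121 in wild type, and JAL33 gave 239, 167 and 183. NAI2, which is needed for the bodies to form, gave 62.6 and 51.2 in MYB29_OE against 81.2 and 107 in MYB76_OE (-0.72). JAL23 and JAL22 had differences of -0.59 and -0.48, with intervals that included 0. The median of the list was -0.71 without MYB29_OE replicate 2 and -1.33 without replicate 1.

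Cold response genes gave the lowest median of the lists with at least 3 tested genes, -2.22, over 4 tested genes of 38. All 4 had both MYB29_OE arrays below both MYB76_OE arrays, an order shown by 18.8% of all tested probe sets, and none was called in the fit to all arrays. The median was -1.51 without MYB29_OE replicate 2 and -2.83 without replicate 1. LTI30, a dehydrin that accumulates in cold and drought, gave 74.5 and 50.9 in MYB29_OE against 757 and 617 in MYB76_OE and 73.4, 63.2 and 39.1 in wild type. MYB29_OE thus lay at the wild type level and MYB76_OE far above it. The log2 difference was -3.47 ± 1.07, 11.1-fold lower in MYB29_OE with a limma adjusted p of 0.994. LTI30 was called when the spread came from the 7 arrays of this experiment (limma adjusted p = 0.0208) or from the 4 arrays compared (0.00318).

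COR47, another dehydrin, gave 442 and 252 in MYB29_OE against 1056 and 856 in MYB76_OE and 761, 1084 and 670 in wild type (-1.51 ± 0.42, limma adjusted p = 0.846). Here MYB76_OE overlapped with wild type and MYB29_OE lay below it. COR15A and COR15B protect chloroplast membranes in the cold. COR15A gave 163 and 38.8 in MYB29_OE against 600.0 and 616 in MYB76_OE, but 69.7, 441 and 10.0 in wild type. COR15B gave 302 and 219 against 473 and 624 in MYB76_OE, and 167, 1223 and 156 in wild type. COR15A differed by -2.94 between the lines, and by -1.90 without MYB29_OE replicate 2. The intervals of both COR15 genes included 0 (-6.10 to 0.23 and -3.38 to 1.22), and the spread among wild type arrays was as wide as the difference between the lines.

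Auxin response genes, 8 tested of 86, had a median of -0.75 with no call. Of these, 5 had both MYB29_OE arrays below both MYB76_OE arrays, against 18.8% of all tested probe sets, and 3 had an unadjusted p under 0.05, against 1.96%. IAA29, an Aux/IAA repressor of auxin signalling, gave 11.6 and 5.91 in MYB29_OE, both at the floor, against 58.5 and 51.0 in MYB76_OE and 87.2, 97.8 and 77.5 in wild type. It was at least 4.02-fold lower in MYB29_OE (limma adjusted p = 0.2). HAT2, an auxin-induced homeodomain factor, gave 89.1 and 45.5 in MYB29_OE against 168 and 145 in MYB76_OE and 242, 260 and 146 in wild type (-1.30 ± 0.35, limma adjusted p = 0.812).

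GH3 enzymes join auxin to amino acids. GH3.17 gave 146 and 35.0 in MYB29_OE against 213 and 182 in MYB76_OE (-1.46, 95% interval -2.83 to -0.09), and -0.43 without MYB29_OE replicate 2. Its MYB29_OE arrays differed more from each other than replicate 1 did from MYB76_OE. GH3.3 and WES1, also of this family, had lower means in MYB29_OE with intervals that included 0. GH3.9, IAA30 and IAA18 overlapped between the lines. The median of the list was -0.26 without MYB29_OE replicate 2 and -1.0 without replicate 1.

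The stomatal lineage genes gave the highest median of those lists, 1.07, over 3 tested of 8 guard cell and trichome markers. SPCH, MUTE and FMA are the bHLH factors that act in turn in the divisions and differentiation that lead to guard cells. SPCH gave 330 and 487 in MYB29_OE against 163 and 224 in MYB76_OE and 326, 173 and 191 in wild type (1.07 ± 0.35). MUTE gave 95.8 and 124 in MYB29_OE against 36.4 and 43.8 in MYB76_OE and 27.7, 73.0 and 44.7 in wild type (1.45 ± 0.41, limma adjusted p = 0.931). FMA, the gene also called FAMA, gave 135 and 143 in MYB29_OE against 77.3 and 94.8 in MYB76_OE (0.70 ± 0.31). Its wild type signals were 212, 125 and 183, so MYB29_OE lay within the wild type range and MYB76_OE below it.

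All 3 stomatal genes had both MYB29_OE arrays above both MYB76_OE arrays, an order shown by 22.5% of all tested probe sets, and none was called. In bulk seedlings a change in the number of cells of a lineage and a change in transcript per cell cannot be told apart. The median of the 3 was 0.79 without MYB29_OE replicate 2 and 1.35 without replicate 1.

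**Figure D4:**
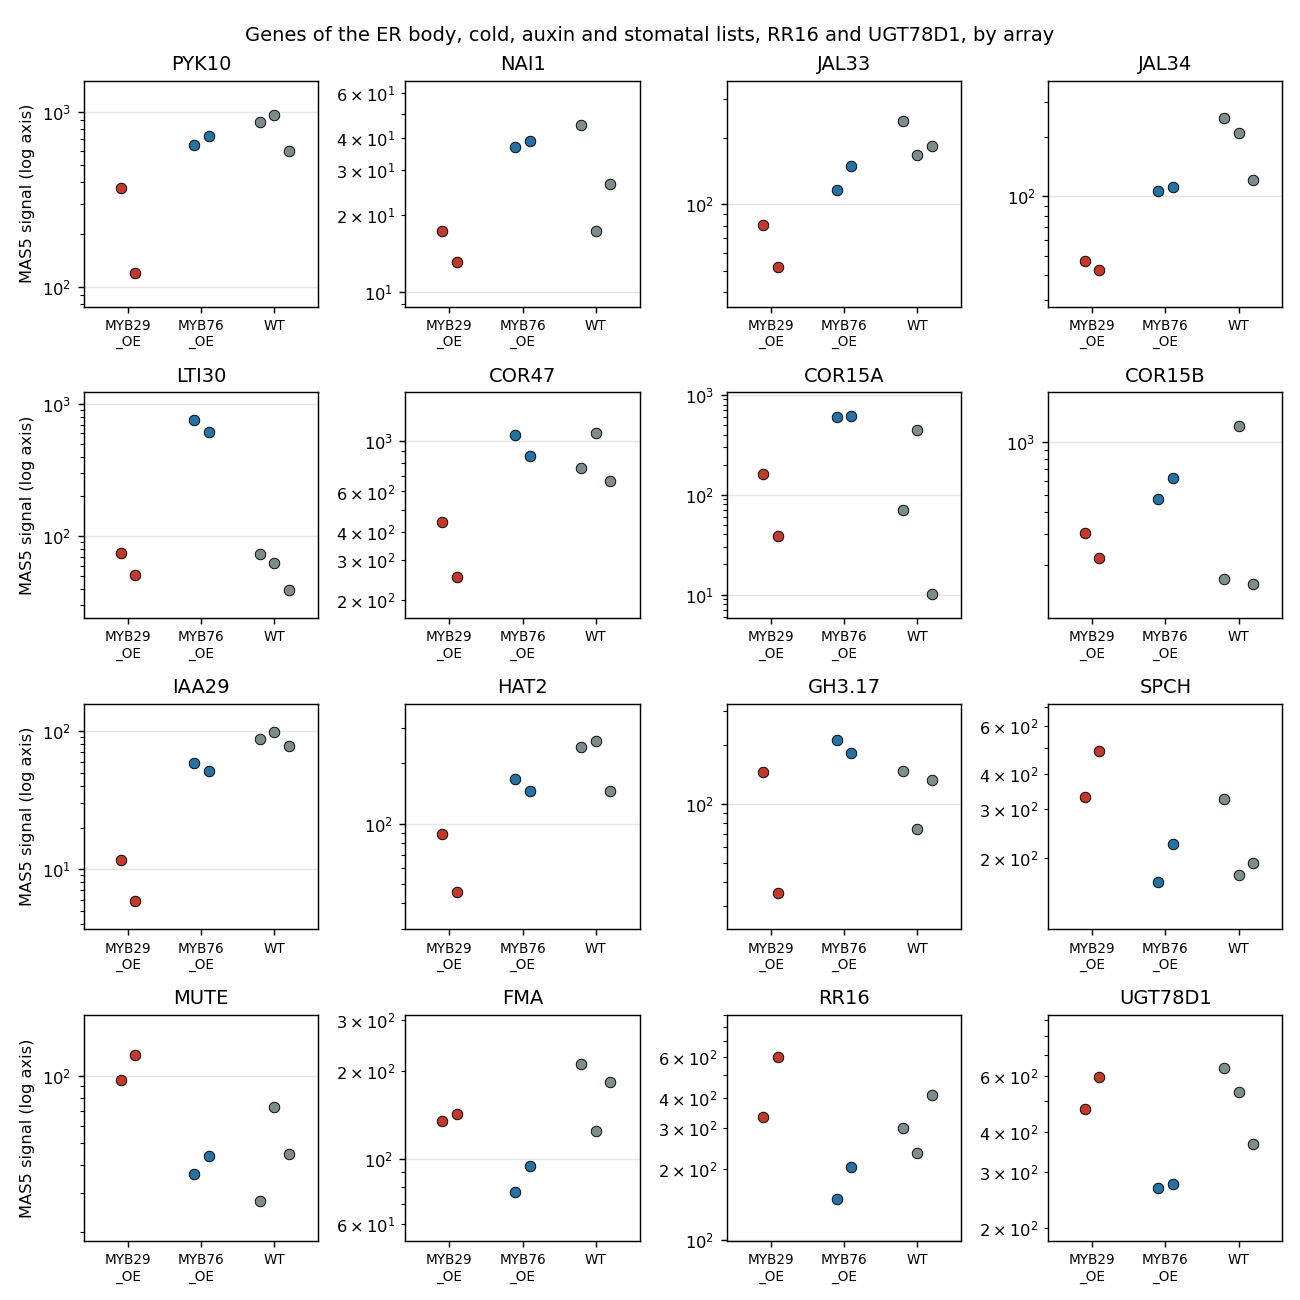
MAS5 signal (log axis, each panel with its own range) of 16 genes on the MYB29_OE, MYB76_OE and WT_MYB29_MYB76 arrays (labelled WT), 1 point per array. MYB29_OE lies below MYB76_OE in the first 11 panels and above it in SPCH, MUTE, FMA, RR16 and UGT78D1; in LTI30 the MYB29_OE arrays (74.5 and 50.9) lie at the wild type level.

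Flavonoid and phenylpropanoid genes, 6 of them tested, had differences of both signs with a median of 0.19. UGT78D1, a flavonol rhamnosyltransferase, gave 473 and 598 in MYB29_OE against 268 and 276 in MYB76_OE (0.97, 95% interval 0.30 to 1.64). UGT78D2, a flavonoid glucosyltransferase, gave 539 and 1230 against 346 and 401 (1.13, 0.22 to 2.04), and 0.53 without MYB29_OE replicate 2. DFR, which commits flavonoids to anthocyanins, gave 186 and 50.9 in MYB29_OE against 351 and 292 in MYB76_OE (-1.72, -3.50 to 0.07), and -0.78 without MYB29_OE replicate 2. None was called, and HCT and CCOAMT overlapped between the lines.

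Among sugar transporters, 16 tested of 46, SAG29 (SWEET15) had both MYB29_OE arrays at the floor, at 9.49 and 5.44 against 64.6 and 37.1 in MYB76_OE, and was at least 3.60-fold lower. SWEET17, a vacuolar fructose carrier, gave 200 and 127 in MYB29_OE against 321 and 400 in MYB76_OE. SWEET1 gave 1101 and 894 in MYB29_OE against 603 and 748 in MYB76_OE. Expansins, which loosen cell walls, showed 2 genes higher and 1 lower at an unadjusted p under 0.05 among 14 tested, against 1.33% and 1.96% of all tested probe sets. EXPA9 gave 119 and 99.6 in MYB29_OE against 47.8 and 64.7 in MYB76_OE, and EXPA15 gave 962 and 1290 against 802 and 715. EXLA1 gave 82.0 and 3.99 in MYB29_OE against 155 and 180 in MYB76_OE, so its value of -2.37 rests in part on the floor of replicate 2, and it was -1.03 without that array. None of these transporter and expansin genes was called.

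Of 25 tested UGT glucosyltransferases, 13 had a higher mean and 12 a lower one in MYB29_OE. UGT72E1, with 1 MYB29_OE array at the floor, and UGT85A7 had differences of -1.25 and -1.23, and UGT85A7 gave 96.5 and 104 in MYB29_OE against 247 and 225 in MYB76_OE. The defence list had 7 tested genes and a median of -0.43, which was -0.26 without MYB29_OE replicate 2, -0.24 without MYB76_OE replicate 1 and -0.92 without MYB76_OE replicate 2. Arrays of the lines overlapped for 5 of the 7, while 41.3% of all tested probe sets showed no overlap. Of the other 2, the transcription factor gene WRKY47 gave 59.9 and 46.3 in MYB29_OE against 126 and 108 in MYB76_OE (-1.15, 95% interval -1.86 to -0.44), and the antimicrobial peptide gene PDF1.4 gave 31.7 and 29 against 60.3 and 55.4. Of the other beta-glucosidases, BGLU25 gave 204 and 186 against 381 and 292 in MYB76_OE. The abaxial fate gene YAB5 gave 113 and 101 in MYB29_OE against 159 and 182 in MYB76_OE, and the glutathione transferase gene GSTU27 gave 876 and 549 against 1080 and 945. None of these genes was called.

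Other lists lay near 0. The median was 0.03 for 12 cell division genes, -0.16 for 8 heat shock genes and co-chaperones and -0.04 for 12 nuclear photosynthesis genes. It was 0.05 for 8 glutathione transferases, -0.20 for 6 touch and wounding genes and -0.02 for 4 metal homeostasis genes. Of the heat shock genes and co-chaperones, 7 had a lower and 1 a higher mean in MYB29_OE. Leaving out 1 array gave medians of -0.42 to -0.02 for that list. The heat shock list held AT5G48570, a co-chaperone, at 223 and 169 in MYB29_OE against 306 and 331 in MYB76_OE, and at 21.7, 28.2 and 11.8 in wild type. In that gene both lines were far above wild type. None of the lists held a called gene.

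Plastid-encoded transcripts had a low median signal in both lines, unlike wild type. Of 129 genes, 68 were tested, with a median log2 difference of 0.01, no call and no unadjusted p under 0.05. The differences ran from -0.70 for rps15, of the small ribosomal subunit, to 1.16 for ndhC, of the plastid NDH complex. Their median log2 signal was 5.45 and 5.14 in MYB29_OE and 4.99 and 5.23 in MYB76_OE, but 11.3, 9.97 and 8.08 in wild type. For psbA, a core protein of photosystem II, signals were 127 and 110 in MYB29_OE, 125 and 127 in MYB76_OE and 2159, 1989 and 970 in wild type. Wild type levels of these transcripts varied between arrays, and whatever separates wild type from the lines here was not tested. Nuclear photosynthesis genes showed no such gap, with median log2 signals of 12.6 and 12.8 in MYB29_OE, 12.8 and 12.7 in MYB76_OE and 12.9 to 13.1 in wild type.

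**Figure D5:**
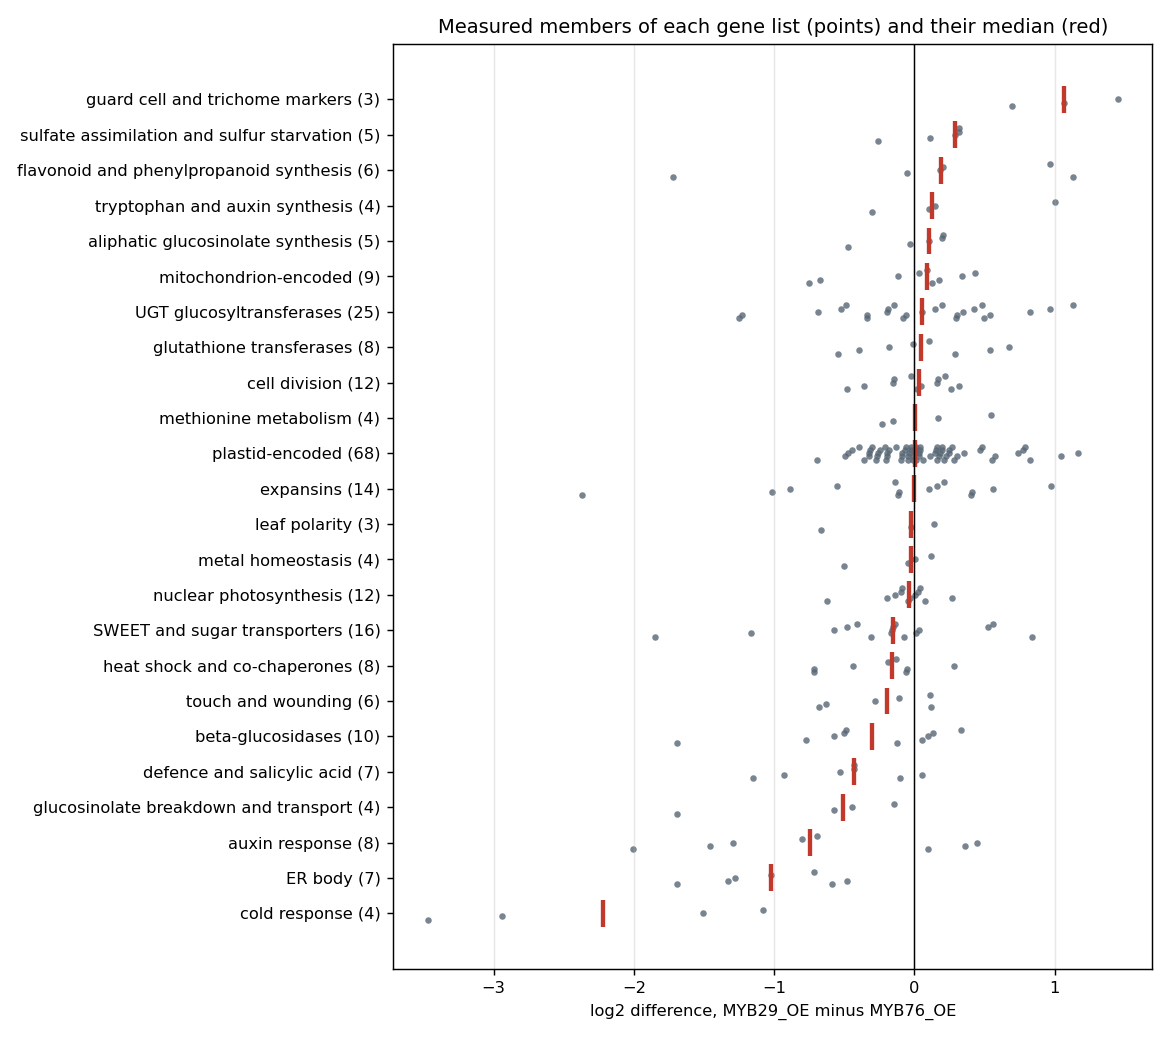
Log2 difference, MYB29_OE minus MYB76_OE, of the tested members of each gene list (points, number in brackets) with the list's median (red bar). Medians run from -2.22 for cold response to 1.07 for guard cell and trichome markers, while the aliphatic glucosinolate (0.10) and plastid-encoded (0.01) lists lie at 0 or close to it.

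Among probe sets of 1 named gene with non-overlapping arrays, at least 1 array of each line above the floor and an unadjusted p under 0.05, the 10 lowest and 10 highest differences concerned genes of varied function, and none was called. Below LTI30 in size came AT4G17470, with 1 MYB29_OE array at the floor, at 13.1 and 19.9 in MYB29_OE against 132 and 105 in MYB76_OE (-2.79, limma adjusted p = 0.272), and, after EXLA1, the short-lived transcript CCL, at 835 and 177 against 1812 and 1439 (-2.07). AT1G72140 gave 88.7 and 55.0 in MYB29_OE against 303 and 268 in MYB76_OE (-2.03, limma adjusted p = 0.134). AT2G32150 gave 123 and 78.5 against 409 and 382 in MYB76_OE, and 242, 436 and 425 in wild type (-2.01, limma adjusted p = 0.107). For AT2G32150 the MYB76_OE arrays lay within the range of wild type, while for AT1G72140 the MYB29_OE arrays did in part.

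AT5G05600, a dioxygenase gene, gave 59.2 and 83.2 in MYB29_OE against 281 and 260 in MYB76_OE (-1.94). AT1G15010 gave 46.4 and 27.2 against 140 and 133 in MYB76_OE (-1.94), and AT1G58025 gave 30.0 and 9.64 against 64.1 and 73.7 (-1.82). PUB23, a U-box ubiquitin ligase gene, gave 18.5 and 5.21 in MYB29_OE against 44.4 and 58.8 in MYB76_OE (-1.74). In AT1G58025 and PUB23, MYB29_OE replicate 2 was at the floor, so that these values depend on it in part.

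The highest differences were smaller. AT2G33850 gave 192 and 419 in MYB29_OE against 86.5 and 94.4 in MYB76_OE, with wild type above both at 997, 971 and 683 (1.65). RR16, a type-A response regulator of cytokinin signalling, gave 333 and 601 in MYB29_OE against 149 and 204 in MYB76_OE and 298, 235 and 413 in wild type (1.36 ± 0.37, limma adjusted p = 0.812). AT4G27890 gave 70.2 and 78.8 against 28.0 and 27.8 in MYB76_OE (1.42), and AT5G57760 gave 85.8 and 114 against 42.2 and 37.1 (1.32). In RR16, AT2G33850, AT4G27890 and AT5G57760 the MYB76_OE arrays lay below all wild type arrays. The same held for AT4G27657 and, narrowly, for DL1D, which are described next. In AT2G33850 and AT5G57760 the MYB29_OE arrays lay below all wild type arrays as well.

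AT4G27657 gave 45 and 105 in MYB29_OE against 28.9 and 19.8 in MYB76_OE (1.52), and AT5G63820 gave 96.3 and 96.5 against 48.1 and 30.4 (1.33). LpxA (1.58), named for a lipid A-type acyltransferase, AT2G15630 (1.43) and DL1D (1.41), a dynamin-like gene, each had 1 MYB76_OE array at the floor. Most of the 10 highest genes had signals near or below the array medians in MYB76_OE.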

How the data were processed

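Transcript levels had been measured on 1-colour Affymetrix ATH1 arrays, 1 sample per array. The deposited values are linear MAS5 signal intensities, summarised with MAS5 per the submitters' processing notes, with no version given. The values show that the authors scaled each array to a mean of 250 after trimming 2% at each end. Genome build and detection calls are not given in the sources used here, and no array dates are given, so batches were not tested. The number of arrays limits the precision.

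Signals under an array's 20th percentile were raised to it and log2 was taken. A probe set entered the test with signals at or over the 40th percentile on 2 or more arrays, and 64 control probe sets were left out, which left 15630 of 22810. A linear model with 1 mean for each of 9 groups was fitted to all 19 arrays (limma 3.58.1, lmFit and eBayes with trend, R 4.3.3), with 10 residual and 5.62 prior degrees of freedom. The contrast was MYB29_OE minus MYB76_OE, two-sided, with p-values adjusted by Benjamini and Hochberg's method over all tested probe sets. Arrays at the floor in all of a line give a lower bound. The script was checked on simulated data. Figures were drawn with matplotlib 3.10.9.

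Probe sets were named through the platform annotation and the RefSeq gene table of TAIR10.1: 13513 had 1 gene, 503 several and 8794 none listed. Of those tested, 8578 had 1 gene, 311 several and 6741 none listed, and such a probe set is unnamed here. Named genes are the called probe sets, the 10 highest and 10 lowest non-overlapping probe sets of 1 gene with an unadjusted p under 0.05 and at least 1 array of each line above the floor, every tested member of the glucosinolate, sulfate, methionine and tryptophan lists, and up to 3 members of lowest p of each other list. Further members and genes were named after their values were seen. The members and lists were chosen with earlier results of these data known, and lists are described with no test.

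Replicate numbers were not used as a block: same-numbered arrays of the lines deviated together at r = 0.0506. Alternatives were quantile normalization, other floors and filters, other fits and leaving out each array.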

Additional observations from a re-analysis of the deposited data

How the results depend on the processing

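Of 15630 probe sets, 4 were called. With limma the count was 4 with the floor at the 10th percentile, with no floor, with the filter on the 4 arrays compared or at the 60th percentile, and in the fit to the 7 arrays of the experiment, which shared 3 of the calls. It was 5 with quantile normalization and with 16 added before log2, both with 2 higher and 3 lower. It was 9 with no filter (1 higher, 8 lower), 9 without the trend in eBayes (2 higher, 7 lower) and 22 in the fit to the 4 arrays compared (3 higher, 19 lower, 3 shared). With the replicate number as a block 3 were called, all shared, and 266142_at was lost (limma adjusted p = 0.105); the numbers were not found to pair the arrays. Leaving out 1 array gave 1 to 21 calls, 1 of them higher each time and 0 to 20 lower. Where 0 were lower, 200 to 294 probe sets had an unadjusted p under 0.05 in either direction, against 781 without MYB29_OE replicate 1. 250598_at was called under each of these alternatives. 250589_at lost its call without MYB29_OE replicate 2 or either MYB76_OE array (limma adjusted p = 0.166 to 0.272), 266142_at without any 1 array, and 259381_s_at without the same 3 arrays as 250589_at, in the 7-array fit (0.254) and in the 4-array fit (0.0579).

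Of 1568 values recomputed for 109 named probe sets, 13 changed sign, all by leaving out 1 array. The log2 differences then ranged from -0.0139 to 0.41 for BCAT4, -0.20 to 0.14 for AOP3, -0.335 to 0.0361 for GTR1, -0.0282 to 0.66 for TAAC, -0.14 to 0.37 for APS3, -0.38 to 1.47 for MSRB6, -0.365 to 0.0600 for CBL, -0.19 to 0.53 for MGL, -0.0369 to 0.33 for YUC2, -0.57 to 0.00852 for CML38, -0.15 to 0.0556 for ZIP6, -0.0704 to 0.35 for YAB3 and -0.28 to 0.24 for PHV. Of these 109 named probe sets, and not of all calls, AT4G17470, AT2G32150, AT5G05600, JRG21 and OPCL1 were called only in the 4-array fit. AT1G58025 was called only with no filter, LEA4-5 with no filter or no trend, and LTI30 in the 7-array and 4-array fits. PYK10 was called only without MYB29_OE replicate 1, which leaves 1 MYB29_OE array. The cause was not tested. Of 360 list medians, 40 moved by more than the spread; the SWEET list's was 0.15 without MYB29_OE replicate 2 and -0.52 without replicate 1. The wide intervals of low signals limit what 2 arrays per line can show.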

Other observations

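A further set of genes with gene symbols lay outside the lists and was chosen after its values were seen, by lowest unadjusted p. None passed the adjusted threshold. JRG21, a jasmonate-regulated dioxygenase gene, gave 10.6 and 1.81 in MYB29_OE, both at the floor, against 120 and 86.2 in MYB76_OE and 30.5, 19.3 and 13.4 in wild type. It was at least 7.49-fold lower (limma adjusted p = 0.107). OPCL1, a CoA ligase of jasmonate synthesis, gave 293 and 272 in MYB29_OE against 653 and 682 in MYB76_OE and 192, 268 and 92.2 in wild type (log2 difference -1.24). LEA4-5, a late embryogenesis abundant protein gene, gave 12.8 and 1.57 in MYB29_OE, both at the floor, against 77.3 and 70.7 in MYB76_OE and 5.08, 3.86 and 1.86 in wild type. It was at least 5.44-fold lower (limma adjusted p = 0.134). In JRG21, LEA4-5 and OPCL1, as in LTI30, the MYB76_OE arrays lay above all wild type arrays.

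The zinc finger gene STZ gave 65.7 and 37.6 in MYB29_OE against 96.8 and 106 in MYB76_OE, and the U-box ligase gene PUB19 gave 20.5 and 35.7 against 59.6 and 89.2. XERICO, a RING finger gene linked to abscisic acid, gave 159 and 69.2 in MYB29_OE against 195 and 203 in MYB76_OE. AILP1, TET3, ZW9 and FMO had log2 differences of -1.11, -0.99, -1.27 and -1.30. YLS5 gave 344 and 498 in MYB29_OE against 239 and 240 in MYB76_OE (0.79).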
